A study of Mus musculus with 36 samples.

Results

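The collagens, the proteins that make up most of the extracellular matrix, were taken as a family by name. Every gene whose symbol is Col, a type number, the letter a and a chain number was included, which gave 44 of the 50509 gene symbols in each table of values. Of these, 11 encode fibrillar collagens, 6 encode the chains of basement membrane type IV, 9 encode fibril-associated collagens with interrupted triple helices (FACITs) and 18 belong to other types. Levels are in TPM, a share of all transcripts that is scaled for transcript length and to a fixed sum per library. Membership followed the symbol alone, although earlier results of these data were known when the members were chosen. Which members are described in detail depends in part on their values.

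The cells were mouse embryonic fibroblasts from E12.5 to E13.5 embryos, and all groups carried the same mCherry reporter driven by the promoter of Myh6, a myosin gene of heart muscle. The groups were cells given GHMT with 1% DMSO, cells given GHMT and left untreated, uninfected (UI) cells with 1% DMSO and uninfected untreated cells. GHMT stands for Gata4, Hand2, Mef2c and Tbx5, transcription factors of heart development, and DMSO is dimethyl sulfoxide, a polar solvent. Each was sampled at days 2, 7 and 21 with 3 libraries, which makes 36 libraries in 12 groups, all in a StemPro34 medium with FGF2, FGF10 and VEGF. Nothing in the labels says that the 3 libraries of a group came from separate cultures, so the spread behind each p-value may be that of technical repeats.

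Collagens are trimers of alpha chains wound into a triple helix. Fibrillar collagens assemble into the fibrils that give tissue its tensile strength, with types I and III as the bulk of fibroblast matrix and types V and XI as minor chains within the fibrils. Type IV forms the sheet-like network of basement membranes, which surround muscle cells among others. FACITs sit on the surface of fibrils, type VI forms beaded filaments around cells, type VIII forms hexagonal networks, type VII forms anchoring fibrils, and types XV and XVIII are attached to basement membranes.

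The values were deposited with no read depth, between 15776 and 18486 genes reached 1 TPM in a library, and protein-coding genes held 50.6 to 65.3% of TPM. Fibroblast markers were present throughout, with 10 of 10 at 1 TPM or more on average in every group. The libraries of the day 21 GHMT cells with DMSO were the least alike, with mean correlations to their own group of 0.919, 0.927 and 0.913 for replicates 1, 2 and 3. Replicate 3 of that group was left out in an alternative chosen after seeing the data, together with replicate 1 of the day 7 GHMT cells with DMSO (0.931) and replicate 1 of the untreated uninfected cells of day 21 (0.942), each the lowest of its group. These 3 are called the libraries that stood apart. Since these are bulk samples, fewer cells of a type and less RNA per cell cannot be told apart. The arms lie in separate tables, so their levels are set side by side without a test, and only the differences made by DMSO were tested between arms.

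Over all 36 libraries the 4 members with the highest means were chains of types III, I and IV. Col3a1 averaged 3769 TPM, Col1a2 1861 TPM, Col1a1 1458 TPM and Col4a1 931 TPM, and 14 of the 44 members averaged over 100 TPM. At the other end Col6a4, Col6a5, Col9a1 and Col13a1 stayed under 1 TPM in every library, and Col2a1 and Col9a2 reached 1 TPM in too few libraries to be tested. A member was tested where at least 3 libraries of a table had 1 TPM or more, which held for 35 members in uninfected cells and 36 in GHMT cells. In uninfected untreated cells Col3a1 ranked 1 at day 2 and 2 at days 7 and 21 among protein-coding genes by mean TPM. The order differed between groups: in GHMT cells with DMSO at day 21 the highest mean was that of Col4a1 (1620.0 TPM), ahead of Col3a1 (1283 TPM), and in untreated uninfected cells at day 2 Col6a1 (1034 TPM) and Col5a2 (984 TPM) were ahead of Col4a1 (903 TPM).

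With DMSO, most tested collagens were a little lower in uninfected cells, and few differences passed the test. A difference is the mean of the DMSO group minus that of the untreated group on the log2(TPM + 1) scale, which understates the change of low genes, with its standard error (SE) from limma, and a gene was called at a Benjamini-Hochberg adjusted p under 0.05 over all genes tested. In uninfected cells 25 of 35 tested members were below 0 at day 2, 23 at day 7 and 29 at day 21, with medians of −0.13, −0.21 and −0.40, against medians of 0.05, 0 and 0.01 over all 19979 genes tested. None was called at day 2, where limma called 0.285% of all genes and 5 members had an unadjusted p under 0.05. At day 7, 3 members were called against 1.69% of all genes, and at day 21, 3 against 2.36%.

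In GHMT cells the tested collagens lay on both sides of 0. Of 36 tested members, 21 were below 0 at day 2, 17 at day 7 and 16 at day 21, with medians of −0.07, 0.12 and 0.20, against 0.04, 0.07 and −0.06 over all 20618 genes tested. At day 2 none was called by limma, with 0.00485% of all genes called and 1 member at an unadjusted p under 0.05. At day 7 none was called either, with 0.708% of all genes called and 6 members at an unadjusted p under 0.05. At day 21, 3 members were called against 4.59% of all genes.

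Counts of members whose DMSO and untreated libraries did not overlap are given beside the same share of all genes tested. Among the 35 tested in uninfected cells, 3 were higher and 4 lower at day 2 (11.1% and 5.36% of all genes), 3 higher and 13 lower at day 7 (14.5% and 14.2%), and 2 higher and 9 lower at day 21 (7.49% and 7.15%). Among the 36 tested in GHMT cells, 2 were higher and 1 lower at day 2 (6.71% and 2.98% of all genes), 5 higher and 1 lower at day 7 (15% and 6.9%), and 9 higher and 3 lower at day 21 (10.8% and 13.2%). The members without overlap were thus mostly lower in uninfected cells at the later days, where the 2 shares of all genes were nearly equal. In GHMT cells more members were higher than lower at each day. The same held for all genes at days 2 and 7, and not at day 21.

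**Figure D1:**
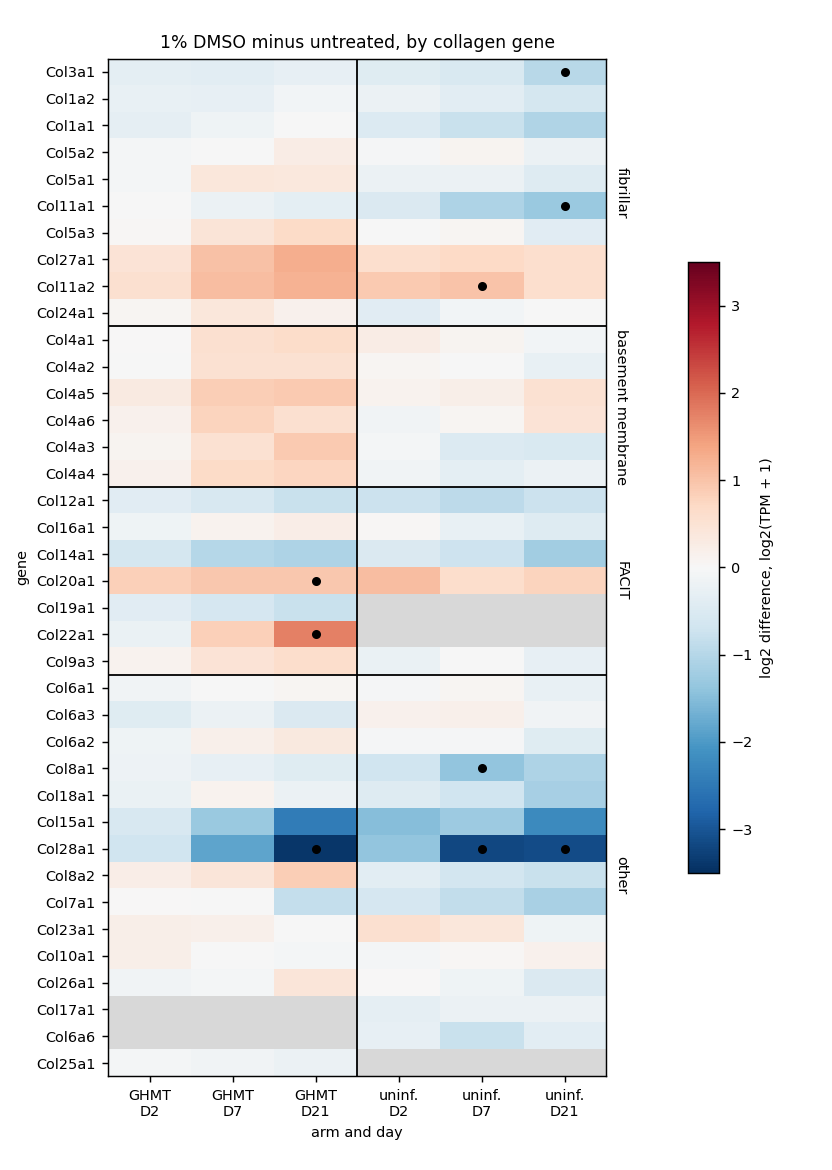
Heat map of the DMSO minus untreated difference in log2(TPM + 1) for each collagen tested (rows, by type) in the 6 comparisons of arm and day (columns), with called members marked. Col28a1 is the darkest row, at −3.41 in GHMT cells at day 21, and the 6 type IV chains are above 0 in GHMT cells at days 7 and 21.

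The fibrillar collagens, and among them the chains of types I and III, were lower with DMSO in uninfected cells at the later days. Their summed level was 11830.0, 13350.0 and 12000.0 TPM with DMSO and 16640.0, 17860.0 and 17320.0 TPM untreated at day 7. At day 21 it was 6793, 4567 and 4405 TPM with DMSO and 9693, 9125 and 8088 TPM untreated. The groups did not overlap at either day, and the ratio of means was 0.718 at day 7 and 0.586 at day 21, with no test since the sum is a score over the members. At day 2 the ratio was 0.786 and the libraries overlapped as deposited. After median ratio scaling they did not overlap at day 2 (ratio 0.743).

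In GHMT cells the fibrillar sum did not separate by DMSO at day 21. It was 2730.0, 4385 and 5313 TPM with DMSO and 3953, 4071 and 4382 TPM untreated. The DMSO libraries thus lay on both sides of the untreated ones. At day 2 the sum was 3422, 3485 and 4108 TPM with DMSO and 3697, 4243 and 5376 TPM untreated in GHMT cells. Within each replicate number the DMSO library was lower at that day. The groups overlapped as deposited and did not after median ratio scaling (ratio of means 0.787). Fibrillar chains made up 43.8 to 50.2% of collagen TPM in GHMT cells with DMSO at day 21 and 46.6 to 53.7% in untreated ones. In uninfected cells they made up 54.5 to 64.6% with DMSO and 62.9 to 71.3% untreated at that day.

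**Figure D2:**
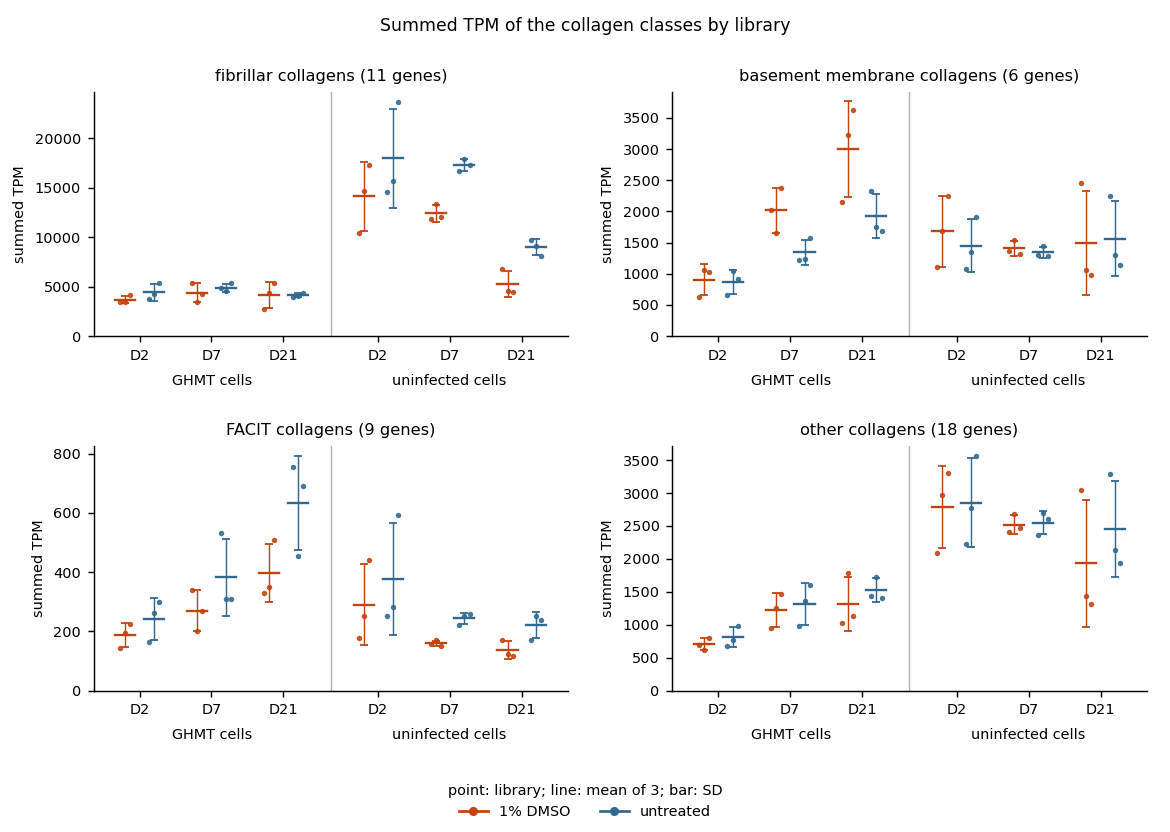
Summed TPM of fibrillar, basement membrane, FACIT and other collagens by day, GHMT cells left of uninfected cells and DMSO (orange) left of untreated (blue). Points are libraries, lines means of 3 and bars SD. The fibrillar and FACIT sums are lower with DMSO without overlap in uninfected cells at days 7 and 21, and the type IV sum is higher with DMSO without overlap in GHMT cells at day 7.

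Col3a1, the chain of type III fibrils, fell with DMSO in uninfected cells at day 21. It had 2794, 2024 and 1978 TPM with DMSO and 5062, 4310.0 and 3868 TPM untreated, with no overlap. The difference was −0.97 ± 0.20 (SE, limma adjusted p = 0.0203). At day 7 Col3a1 had 5395, 5816 and 5281 TPM with DMSO and 7857, 8083 and 7777 TPM untreated, without overlap. This gap did not pass the test in the fit of 18 libraries (−0.53 ± 0.20, limma adjusted p = 0.215). In a fit of day 7 alone with replicate number as a block it did (−0.53 ± 0.05, limma adjusted p = 0.0339). Whether the numbers pair the libraries there is unsettled. The rank of its mean among protein-coding genes was 11 with DMSO and 2 untreated at day 21. In GHMT cells at that day it had 788.5, 1200.0 and 1862 TPM with DMSO and 1224, 1352 and 1924 TPM untreated. These overlap (−0.28 ± 0.25, limma adjusted p = 0.513). At day 2 Col3a1 in GHMT cells had 1803, 1470 and 1693 TPM with DMSO and 1899, 2152 and 2177 TPM untreated, without overlap. At day 7 it had 1763, 1231 and 1332 TPM with DMSO and 1763, 1940 and 1840 TPM untreated there. Neither was called, and single-day fits with replicate number as a block gave limma adjusted p of 0.438 and 0.245. The day 21 call in uninfected cells was lost without any 1 of 4 libraries (DMSO replicates 2 and 3, untreated replicates 1 and 2). Over all alternatives its adjusted p ran between 0.00961 and 0.157. Without the libraries that stood apart it was −0.87 with an adjusted p of 0.0505.

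The start of Col3a1 is shown because it is the most abundant member and one of few whose window holds no CG pair. It is the RefSeq window at chr1:45311288-45311587 on the plus strand (GRCm38.p6), 250 bases before to 50 after the start, with the single TATAAA in capitals.
Col3a1: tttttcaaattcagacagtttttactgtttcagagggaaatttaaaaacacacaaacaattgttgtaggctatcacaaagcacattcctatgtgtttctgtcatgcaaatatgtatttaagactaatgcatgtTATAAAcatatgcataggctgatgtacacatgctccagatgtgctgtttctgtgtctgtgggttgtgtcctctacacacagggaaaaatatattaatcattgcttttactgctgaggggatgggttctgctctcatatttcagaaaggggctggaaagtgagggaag
A TATAAA on either strand was in 5 of the 38 windows matched to 35 members and in 13.6% of all 32851 windows. No CG pair was in 3 of the 38 and in 5.43% of all windows, whose median was 7 pairs.

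The chains of type I did not pass the test for DMSO at any day in either arm in the fits of 18 libraries. In a fit of day 7 alone with replicate number as a block, both were called lower in uninfected cells. Col1a1 was at −0.78 ± 0.07 (limma adjusted p = 0.0294) and Col1a2 at −0.37 ± 0.04 (limma adjusted p = 0.0408), each without overlap. Whether the numbers pair the libraries at that day is unsettled. Col1a1 had 955, 550.0 and 483 TPM with DMSO and 1226, 1502 and 1248 TPM untreated in uninfected cells at day 21 (−1.06 ± 0.28, adjusted p = 0.066), and the groups did not overlap. Col1a2 had 1661, 1183 and 1218 TPM with DMSO and 2075, 2096 and 1953 TPM untreated there (−0.61 ± 0.20, adjusted p = 0.16), again without overlap. In GHMT cells at day 21 both overlapped, with Col1a1 at 486, 987 and 1008 TPM with DMSO and 760.5, 954 and 673 TPM untreated. Col1a2 was at 439.6, 732 and 863 TPM with DMSO and 637, 712 and 742 TPM untreated in those cells.

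Of the type XI chains, Col11a1 was called lower at day 21 and Col11a2 higher at day 7 in uninfected cells. For each of them the DMSO and untreated libraries did not overlap at either of these days. Col11a1, a chain that nucleates thin fibrils with types II and V, fell with DMSO at day 21, when it had 21.0, 15.8 and 15.1 TPM with DMSO and 38.5, 45.4 and 48.3 TPM untreated (−1.31 ± 0.27, adjusted p = 0.0186). At day 7 it had 34.4, 36.15 and 29.7 TPM with DMSO and 64.6, 74.0 and 74.7 TPM untreated (−1.07 ± 0.27, adjusted p = 0.0623). GHMT cells had 146, 124 and 195 TPM with DMSO and 251, 149 and 197 TPM untreated at day 21, which overlap. The call at day 21 was lost without DMSO replicate 2 or 3 or untreated replicate 2 or 3, with adjusted p between 0.00379 and 0.105 over all alternatives.

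Col11a2, another chain of type XI, rose with DMSO at day 7 in uninfected cells. It had 5.69, 4.34 and 5.49 TPM with DMSO and 1.92, 3.08 and 1.44 TPM untreated (1.00 ± 0.20, adjusted p = 0.0236). The call was lost without DMSO replicate 1 or 3 or untreated replicate 1 or 3 (adjusted p between 0.0156 and 0.095 over all alternatives). Its DMSO libraries lay above the untreated ones without overlap in each of the 6 comparisons of arm and day. In GHMT cells at day 21 it had 1.44, 3.91 and 6.87 TPM with DMSO and 0.852, 0.842 and 1.23 TPM untreated, without overlap (1.21 ± 0.34, adjusted p = 0.057). Col27a1, a fibrillar collagen of cartilage, was likewise above 0 in all 6, and had 8.52, 22.7 and 22.3 TPM with DMSO and 4.98, 6.96 and 6.76 TPM untreated in GHMT cells at day 21 (1.28 ± 0.36, adjusted p = 0.0573). Of the other fibrillar members, Col5a1, Col5a2, Col5a3 and Col24a1 had no call for DMSO in either arm.

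In GHMT cells the levels of the type IV chains were higher with DMSO at days 7 and 21, and no chain passed the test in the fit of all 18 libraries (limma, 1 of 6 at an unadjusted p under 0.05 at day 7 and 3 of 6 at day 21). At day 7, where replicate numbers paired the GHMT libraries, each of the 6 chains was higher with DMSO in all 3 pairs. In the paired fit of that day all 6 had an unadjusted p under 0.05, with adjusted p between 0.0498 for Col4a5 and 0.154 for Col4a3. The share of all genes under that unadjusted p was not counted, and collagens of other types were under it too. Of these, Col5a3, Col11a2, Col20a1, Col22a1 and Col27a1 were higher with DMSO, and Col12a1, Col14a1, Col15a1 and Col28a1 were lower. All 6 were above 0 at both days, with medians of 0.61 at day 7 and 0.69 at day 21, and 5 of 6 at day 2 with a median of 0.12. In uninfected cells 3 of 6 were above 0 at days 2 and 7 and 2 of 6 at day 21, with no call there either. The type IV sum in GHMT cells at day 7 was 2030.0, 1648 and 2368 TPM with DMSO and 1223, 1236 and 1570.0 TPM untreated, with no overlap as deposited and with overlap after median ratio scaling. At day 21 it was 2147, 3230.0 and 3625 TPM with DMSO and 2328, 1753 and 1688 TPM untreated, where DMSO replicate 1 lay below untreated replicate 1.

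Col4a1 and Col4a2, whose products form the common trimer of basement membranes, had the highest levels of the group. Col4a1 in GHMT cells at day 7 had 997, 843 and 1377 TPM with DMSO and 607, 658 and 927 TPM untreated (0.55 ± 0.28, adjusted p = 0.36). At day 21 it had 1139, 1762 and 1959 TPM with DMSO and 1280.0, 926 and 894 TPM untreated (0.63 ± 0.28, adjusted p = 0.18). The groups overlapped at both days, at day 7 by a single DMSO library, and the paired fit of day 7 gave 0.55 ± 0.11 (adjusted p = 0.0881). Col4a2 had 627, 599.8 and 748 TPM with DMSO and 392, 449 and 519 TPM untreated at day 7 (0.54 ± 0.30, adjusted p = 0.421), with no overlap. At day 21 Col4a2 had 718.5, 1137 and 1177 TPM with DMSO and 823, 670.3 and 589 TPM untreated (0.52 ± 0.30, adjusted p = 0.31).

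Col4a1 and Col4a2 lie head to head on mouse chromosome 8. Their RefSeq windows (GRCm38.p6) are shown because they overlap, with Col4a1 at chr8:11312777-11313076 on the minus strand and Col4a2 at chr8:11312555-11312854 on the plus strand. The windows share 78 bases, given in capitals on each gene's own strand.
Col4a1: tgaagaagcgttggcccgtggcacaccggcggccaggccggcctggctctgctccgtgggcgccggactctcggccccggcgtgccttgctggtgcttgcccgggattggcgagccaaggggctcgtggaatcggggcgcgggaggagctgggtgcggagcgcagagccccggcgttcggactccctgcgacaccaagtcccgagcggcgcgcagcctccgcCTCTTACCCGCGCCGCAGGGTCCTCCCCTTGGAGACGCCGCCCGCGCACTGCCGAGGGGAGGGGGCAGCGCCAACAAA
Col4a2: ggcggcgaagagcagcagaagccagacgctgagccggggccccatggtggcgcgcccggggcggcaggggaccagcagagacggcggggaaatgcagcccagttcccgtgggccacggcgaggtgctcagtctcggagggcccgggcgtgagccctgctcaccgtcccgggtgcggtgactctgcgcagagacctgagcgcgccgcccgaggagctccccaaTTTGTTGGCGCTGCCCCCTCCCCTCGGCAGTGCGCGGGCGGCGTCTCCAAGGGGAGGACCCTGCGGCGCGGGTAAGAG
The Col4a1 window holds 37 CG pairs and the Col4a2 window 33, and each holds CCAAT once on either strand. CCAAT was in 13 of the 38 member windows and in 37.4% of all windows. GGGCGG, counted on both strands, was in the Col4a1 window once and in the Col4a2 window 3 times, in 23 of 38 member windows and in 35.7% of all windows. Nothing in the sources used here says whether the quantification was by strand.

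Col4a5, an X-linked chain of type IV, was the chain nearest to a call. It had 359.5, 169 and 198 TPM with DMSO and 195.5, 103 and 99.9 TPM untreated in GHMT cells at day 7 (0.85 ± 0.33, adjusted p = 0.215). Replicate numbers paired the libraries at this day, and within each number the DMSO library was higher. In the fit of this day alone with replicate number as a block, the difference was 0.85 ± 0.09 with an adjusted p of 0.0498. At day 21 Col4a5 had 229.5, 254 and 406 TPM with DMSO and 178.5, 116 and 169 TPM untreated, without overlap (0.92 ± 0.33, adjusted p = 0.111).

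Col4a3 and Col4a4, which join Col4a5 in the trimer of kidney and other specialised basement membranes, were low at day 2 and present in GHMT cells later. Col4a3 in GHMT cells at day 21 had 33.2, 42.1 and 41.3 TPM with DMSO and 22.3, 21.2 and 16.98 TPM untreated (0.91 ± 0.39, adjusted p = 0.168). Col4a4 had 13.2, 20.75 and 22.2 TPM with DMSO and 12.75, 11.4 and 8.01 TPM untreated there (0.74 ± 0.42, adjusted p = 0.299). Neither overlapped. In uninfected cells Col4a3 stayed between 0.763 and 2.97 TPM and Col4a4 between 0.421 and 2.02 TPM in all 18 libraries. Col4a6 in GHMT cells at day 21 had 13.6, 13.9 and 19.4 TPM with DMSO and 11.5, 8.02 and 11.1 TPM untreated (0.57 ± 0.42, adjusted p = 0.429).

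**Figure D3:**
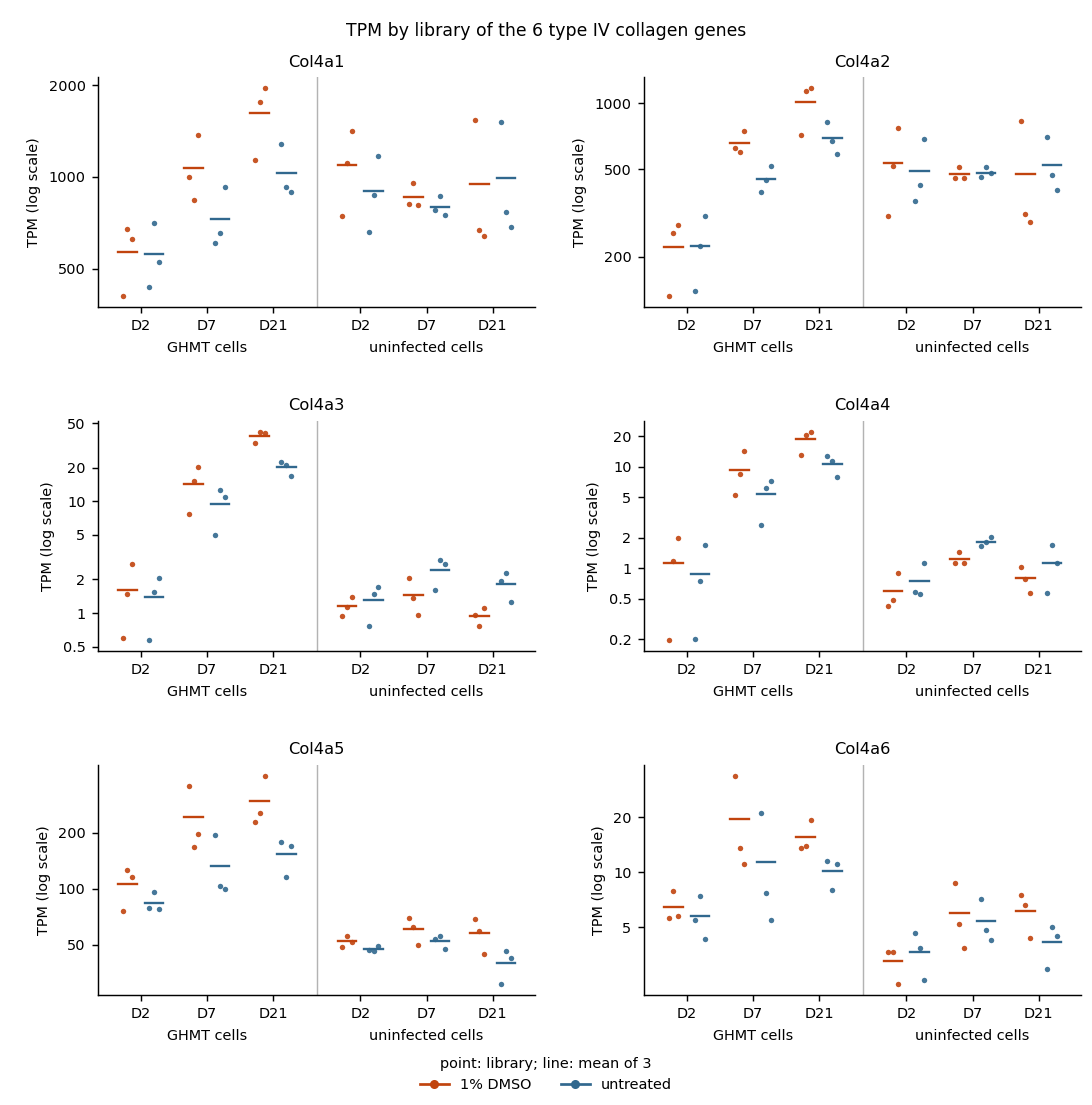
TPM (log axis) of the 6 type IV chains by day, GHMT cells left of uninfected cells and DMSO (orange) left of untreated (blue). Points are libraries and lines means of 3. Col4a3 reaches 42.1 TPM in GHMT cells with DMSO at day 21 and stays at 2.97 TPM or less in uninfected cells.

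Type IV took a larger share of collagen TPM at day 21 than at day 2 in both arms. The GHMT share was 12.7 to 19.9% with DMSO and 12.1 to 16.4% untreated at day 2, 23.3 to 28.2% with DMSO and 16.2 to 17.8% untreated at day 7, and 33.1 to 34.5% with DMSO and 20.7 to 27.5% untreated at day 21. It did not overlap between DMSO and untreated at days 7 and 21, and a share does not depend on the scaling of a library. In uninfected cells the share was 8.03 to 9.64% with DMSO and 5.94 to 6.74% untreated at day 2, 8.29 to 8.67% with DMSO and 5.98 to 6.49% untreated at day 7, and 14.4 to 19.65% with DMSO and 9.965 to 14.6% untreated at day 21. It was higher with DMSO without overlap at days 2 and 7. At day 7 the uninfected type IV sum itself was 1357, 1538 and 1322 TPM with DMSO and 1305, 1444 and 1284 TPM untreated. At day 21 replicate 1 stood above the others in both uninfected groups, with Col4a1 at 1537, 671.5 and 642 TPM with DMSO and 1512, 769 and 686 TPM untreated.

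Markers of heart muscle cells moved with DMSO in the same GHMT groups. The summed level of 8 cardiomyocyte markers was 3309 to 5019 TPM with DMSO and 1126 to 2169 TPM untreated at day 7, and 4771 to 7358 TPM with DMSO and 2519 to 2936 TPM untreated at day 21. All 8 were at 1 TPM or more there, and Actn2, Myh6 and Nppa were called higher at both days. In uninfected cells the sum was 4.36 to 9.26 TPM, with Myh6, Actc1, Myl7 and Ryr2 under 1 TPM on average in every group. The part of these cells in the collagen differences was not tested.

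Among the FACITs, Col22a1 and Col20a1 rose with DMSO in GHMT cells at day 21. No FACIT passed the test as lower in any DMSO comparison in the fits of 18 libraries. The FACIT sum was lower with DMSO in uninfected cells. At day 7 it was 157, 170.0 and 150.3 TPM with DMSO and 223, 251 and 258 TPM untreated. At day 21 it was 171.5, 124 and 117 TPM with DMSO and 171.8, 252 and 239.9 TPM untreated. The sums did not overlap at either day, although untreated replicate 1 of day 21, a library that stood apart, all but met a DMSO library. The FACIT sums of GHMT cells overlapped at each day. Col22a1, a collagen of tissue junctions such as that between muscle and tendon, had 7.39, 6.205 and 10.5 TPM with DMSO and 2.43, 1.49 and 1.09 TPM untreated. The groups did not overlap and the difference was 1.76 ± 0.22 (SE, limma adjusted p = 0.00103). At day 7 Col22a1 had 3.05, 2.32 and 2.34 TPM with DMSO and 1.11, 1.12 and 0.805 TPM untreated (0.83 ± 0.22, adjusted p = 0.104). At day 2 it was under 1 TPM in all 6 libraries, at 0.773, 0.262 and 0.262 TPM with DMSO and 0.936, 0.578 and 0.490 TPM untreated. In uninfected cells it was between 0.113 and 0.542 TPM in all 18 libraries and was not tested there. The day 21 call held without any 1 library, and in a fit of the day 21 libraries alone its adjusted p was 0.0597, or 0.11 with replicate number as a block.

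Col20a1, a FACIT known mainly from chicken embryos, had higher levels with DMSO in each arm at each day, with a call at day 21 in GHMT cells. There it had 3.025, 4.96 and 6.85 TPM with DMSO and 2.08, 2.13 and 1.81 TPM untreated (0.93 ± 0.23, adjusted p = 0.0351). The libraries did not overlap in any of the 6 comparisons. In uninfected cells it had 7.34, 4.23 and 7.17 TPM with DMSO and 2.92, 2.98 and 1.37 TPM untreated at day 2 (1.09 ± 0.24, adjusted p = 0.0812). At day 21 it had 8.71, 5.27 and 5.01 TPM with DMSO and 2.71, 3.84 and 3.02 TPM untreated there (0.78 ± 0.24, adjusted p = 0.126). The call was lost without any 1 library except DMSO replicate 1, with adjusted p between 0.00518 and 0.212 over the alternatives, and without the libraries that stood apart it was 0.71 with an adjusted p of 0.158.

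The most abundant FACITs had no call for DMSO in the fits of 18 libraries. Col12a1, which binds type I fibrils, had 277, 267 and 409.5 TPM with DMSO and 672, 386 and 611 TPM untreated in GHMT cells at day 21 (−0.79 ± 0.35, adjusted p = 0.182). Col14a1, its close relative, had 7.17, 12.7 and 9.08 TPM with DMSO and 12.2, 21.5 and 35.4 TPM untreated there (−1.09 ± 0.54, adjusted p = 0.234). Both were below 0 in all 6 comparisons. In uninfected cells at day 7 Col12a1 had 64.5, 65.6 and 54.2 TPM with DMSO and 107, 125 and 115 TPM untreated. These did not overlap (−0.90 ± 0.35, limma adjusted p = 0.224). Fitting day 7 alone with replicate number as a block gave −0.90 ± 0.08 for Col12a1 and −0.71 ± 0.06 for Col14a1 in uninfected cells. Both then had a limma adjusted p of 0.0294, and whether the numbers pair these libraries is unsettled. Col14a1 was without overlap at day 21 there, with 5.75, 5.62 and 10.25 TPM with DMSO and 15.4, 16.7 and 21.3 TPM untreated (−1.23 ± 0.55, adjusted p = 0.345). Col19a1, a low FACIT, had 2.58, 3.30 and 4.09 TPM with DMSO and 6.38, 5.04 and 8.12 TPM untreated in GHMT cells at day 21, without overlap (−0.79 ± 0.30, adjusted p = 0.132). Col16a1 in those cells had 31.45, 54.7 and 67.0 TPM with DMSO and 57.2, 37.35 and 33.1 TPM untreated, which overlap (0.23 ± 0.27, adjusted p = 0.636). Col9a1 and Col9a2, chains of cartilage type IX, were not tested, and Col9a3 did not exceed 2.82 TPM.

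Col28a1 had the largest difference of the family and was the member called in more than 1 DMSO comparison. It encodes type XXVIII, a collagen with von Willebrand factor A domains like those of type VI, described in mouse at basement membranes around Schwann cells of peripheral nerve. In GHMT cells at day 21 it had 6.335, 3.99 and 10.35 TPM with DMSO and 74.55, 52.1 and 123 TPM untreated (−3.41 ± 0.53, adjusted p = 0.00339). In uninfected cells at day 21 it had 3.77, 5.73 and 6.72 TPM with DMSO and 38.3, 55.6 and 72.8 TPM untreated (−3.12 ± 0.39, adjusted p = 0.000564). The groups lay far apart in both arms, with every DMSO library at 10.35 TPM or less and every untreated library at 38.3 TPM or more.

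Col28a1 fell at day 7 in uninfected cells as well, with 1.38, 1.93 and 1.13 TPM with DMSO and 26.7, 24.9 and 14.3 TPM untreated (−3.18 ± 0.39, adjusted p = 0.00145). At that day it had 11.39, 2.12 and 2.14 TPM with DMSO and 27.5, 16.8 and 10.06 TPM untreated in GHMT cells, where DMSO replicate 1 overlapped (−1.84 ± 0.53, adjusted p = 0.127). At day 2 it had 0.601, 1.59 and 1.62 TPM with DMSO and 2.30, 4.09 and 10.2 TPM untreated in uninfected cells (−1.37 ± 0.39, adjusted p = 0.175). At day 2 in GHMT cells it had 6.22, 3.12 and 3.10 TPM with DMSO and 7.13, 10.65 and 4.48 TPM untreated, which overlap (−0.70 ± 0.53, adjusted p = 1). The 3 calls held without any 1 library and under every alternative tried, with adjusted p up to 0.0232 at day 7 and 0.0303 at day 21 in uninfected cells and up to 0.0406 in GHMT cells.

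The start of Col28a1 is shown as that of the member with the largest difference. It is the RefSeq window at chr6:8192568-8192867 on the minus strand (GRCm38.p6), with the single CAGACA in capitals.
Col28a1: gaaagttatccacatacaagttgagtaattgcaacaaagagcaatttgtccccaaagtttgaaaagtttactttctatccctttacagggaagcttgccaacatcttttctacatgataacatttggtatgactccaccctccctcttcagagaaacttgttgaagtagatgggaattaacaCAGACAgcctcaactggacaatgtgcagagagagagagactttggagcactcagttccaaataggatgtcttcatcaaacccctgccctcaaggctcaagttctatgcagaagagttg
It holds no CG pair and none of the other 3 motifs searched. CAGACA was also in the Col3a1 window, 2 times. On either strand it was in 9 of the 38 member windows and in 21.0% of all windows, and none of the 4 motifs searched is part of another.

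**Figure D4:**
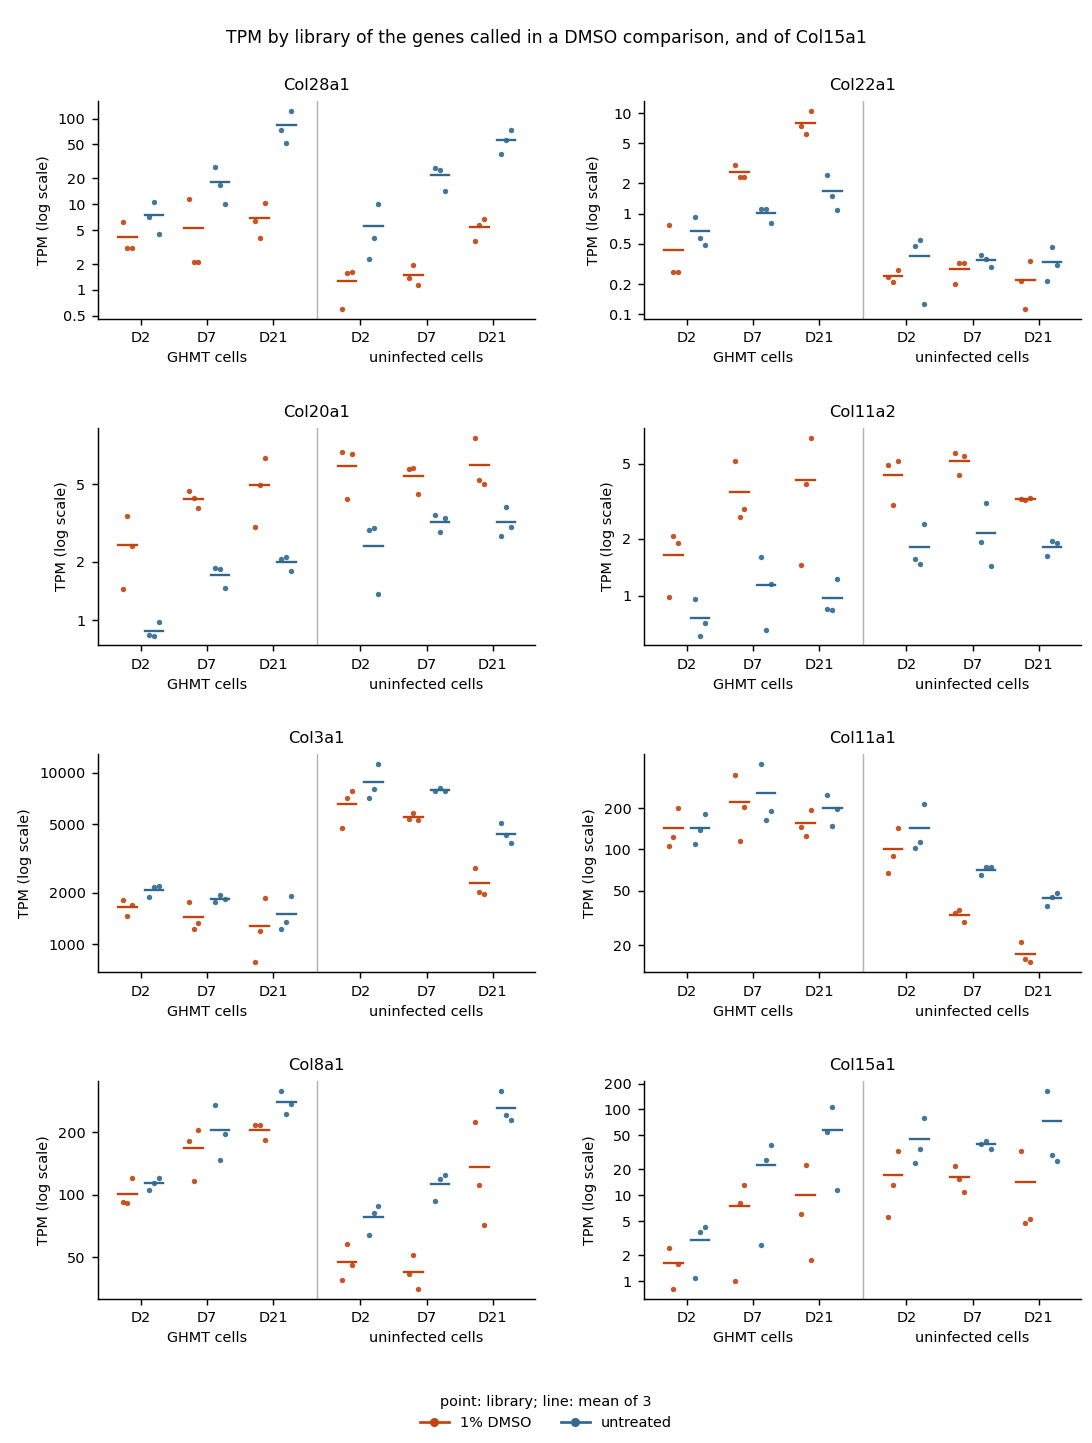
TPM (log axis) by day of the 7 members called for DMSO in at least 1 comparison, and of Col15a1, GHMT cells left of uninfected cells and DMSO (orange) left of untreated (blue). Points are libraries and lines means of 3. Col28a1 climbs with time in untreated cells of both arms and stays at 11.4 TPM or less in every DMSO library.

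Col8a1, a chain of the hexagonal network of vessels and eye, fell with DMSO at day 7 in uninfected cells. It had 41.3, 51.1 and 35.2 TPM with DMSO and 93.25, 119 and 124 TPM untreated (−1.38 ± 0.31, adjusted p = 0.039). At day 21 it had 223, 111 and 71.3 TPM with DMSO and 315, 242 and 228 TPM untreated, without overlap (−1.09 ± 0.31, adjusted p = 0.0885). GHMT cells at day 21 had 217, 215 and 184 TPM with DMSO and 316, 245 and 273 TPM untreated, again without overlap (−0.43 ± 0.22, adjusted p = 0.247). The day 7 call was lost without any 1 of the 6 libraries, with adjusted p between 0.0211 and 0.131 over all alternatives.

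Col15a1, a proteoglycan collagen next to basement membranes of muscle and vessels, had the next largest differences and the widest spread. It was not called for DMSO in the fits of 18 libraries. It was chosen for mention after its values were seen. It had 6.085, 22.3 and 1.76 TPM with DMSO and 53.9, 106.5 and 11.7 TPM untreated in GHMT cells at day 21 (−2.45 ± 1.02, adjusted p = 0.162). In uninfected cells at day 21 it had 33.1, 4.79 and 5.27 TPM with DMSO and 165, 29.6 and 24.8 TPM untreated (−2.24 ± 0.79, adjusted p = 0.191). The groups overlapped in both arms, and the replicates of each group lay far apart, but within each replicate number the DMSO library was lower. In fits of day 21 alone with replicate number as a block, the difference was −2.24 ± 0.12 in uninfected cells (limma adjusted p = 0.0336). It was −2.45 ± 0.21 in GHMT cells (limma adjusted p = 0.0686). Whether the numbers pair the libraries at that day is unsettled.

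Type VI, the most abundant of the other collagens, showed small differences. Col6a1 in GHMT cells at day 21 had 265, 443 and 379.5 TPM with DMSO and 276, 359.9 and 391 TPM untreated (0.06 ± 0.21, adjusted p = 0.883). Col6a2 had 135, 351 and 249 TPM with DMSO and 148.5, 233 and 165 TPM untreated there (0.35 ± 0.36, adjusted p = 0.58). Col6a3 had 273.5, 502 and 168 TPM with DMSO and 396, 510.3 and 324 TPM untreated (−0.50 ± 0.47, adjusted p = 0.542). All of these overlapped. Besides Col28a1 and Col15a1, the tested members of this class lay between −1.16 (Col18a1 in uninfected cells) and 0.85 (Col8a2 in GHMT cells) at day 21.

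Marker genes of fibroblasts, smooth muscle, mesothelium and epithelium moved with these groups. The sum of the 10 fibroblast markers was lower with DMSO without overlap in uninfected cells, at 5269 to 6355 TPM with DMSO and 6943 to 7573 TPM untreated at day 7 and 5579 to 5676 TPM with DMSO and 6947 to 7591 TPM untreated at day 21. That sum in GHMT cells at day 21 was 5388 to 5783 TPM with DMSO and 7081 to 7881 TPM untreated. Of the 10, Thy1, a surface marker, fell in all 3 of these comparisons, S100a4 fell in the last, and the others were not called. In uninfected cells the sum of 6 smooth muscle and myofibroblast markers was 13.62 to 17.06 TPM with DMSO and 52.12 to 78.88 TPM untreated at day 7, and 25.45 to 34.97 TPM with DMSO and 123.6 to 147.5 TPM untreated at day 21. Of the 6, Acta2, Lmod1, Myh11, Myl9 and Tagln fell at day 21. In GHMT cells at day 21 the sum was 952 to 1915 TPM with DMSO and 1614 to 3183 TPM untreated, and Myl9 fell. Of 7 mesothelial markers 1, Upk1b, rose in uninfected cells at day 21, where their sum was 293.9 to 396.7 TPM with DMSO and 115 to 180.8 TPM untreated. That sum in GHMT cells at day 21 went the other way, at 264.9 to 347.4 TPM with DMSO and 359.4 to 669.6 TPM untreated, and Msln fell. The sum of 5 epithelial markers in uninfected cells at day 21 was 0.672 to 0.727 TPM with DMSO and 2.36 to 4.275 TPM untreated, and at day 7 it was 0.541 to 2.01 TPM with DMSO and 5.20 to 6.08 TPM untreated. Other marker sums separated too. In uninfected cells at day 7 that of endothelial markers was 14.6 to 15.1 TPM with DMSO and 21.4 to 21.9 TPM untreated. In GHMT cells at day 21 osteoblast markers were at 20.7 to 26.7 TPM with DMSO and 28.8 to 35.3 TPM untreated. Adipocyte markers there were at 6.77 to 38.9 TPM with DMSO and 59.3 to 72.0 TPM untreated. Schwann and neural markers there were at 40.8 to 51.0 TPM with DMSO and 29.0 to 36.2 TPM untreated. The part of all these markers in the collagen results was not tested.

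For 1 member, Col22a1, the difference made by DMSO was called as larger at day 21 than at day 2 and in GHMT than in uninfected cells. It was under 1 TPM in every GHMT library of day 2 and every uninfected library. Both contrasts thus mostly restate its GHMT difference at day 21. For Col22a1 in GHMT cells the DMSO difference at day 21 minus that at day 2 was 1.99 ± 0.31 (SE, adjusted p = 0.0399), with 0.0679% of all genes called. For Col22a1 the difference in GHMT cells minus that in uninfected cells at day 21 was 1.89 ± 0.25 (adjusted p = 0.000179), with 0.588% of 22264 genes called in the fit of all 36 libraries. The day contrast was lost without any 1 of 8 of its 12 libraries, with adjusted p between 0.00883 and 0.425 over the alternatives. The 8 were replicates 2 and 3 of day 2 and replicate 3 of day 21 with DMSO, and replicates 1, 2 and 3 of day 2 and replicates 2 and 3 of day 21 untreated. The arm contrast held without any 1 library, and in a fit of the 4 groups compared alone its adjusted p was 0.0755.

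No other collagen passed these tests. Between days 21 and 2 in uninfected cells limma called 0.035% of all genes and no member, with 1 member at an unadjusted p under 0.05, although 29 of 35 were below 0. Between arms limma called no member at day 2, with 0.00898% of all genes called and no member at an unadjusted p under 0.05, and none at day 7, with 0.117% of all genes called and 4 members at an unadjusted p under 0.05. At day 21, 31 of 38 members had a higher difference in GHMT cells than in uninfected cells, with a median of 0.57 against −0.05 over all genes. All 10 tested fibrillar members were above 0 in that contrast with a median of 0.69, and all 6 type IV chains with a median of 0.76. None of these 16 passed the test singly, and the largest of them was Col4a3 at 1.44 ± 0.46 (adjusted p = 0.185).

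Over time, in uninfected cells the fibrillar genes fell between days 2 and 21, and in GHMT cells type IV genes rose. These comparisons share libraries with those for DMSO. With DMSO, 2 of 35 uninfected members rose and 12 fell, while 4.86% of all genes rose and 10.2% fell. Untreated, 3 rose and 9 fell, while 5.16% of all genes rose and 5.84% fell. With DMSO in GHMT cells 17 of 36 rose and 1 fell, while 21.4% of all genes rose and 16.2% fell. Untreated GHMT cells had 13 that rose and 1 that fell, while 17.9% of all genes rose and 6.7% fell.

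In uninfected cells 7 of 10 tested fibrillar members fell with DMSO and 6 of 10 untreated, and no type IV chain was called (limma, 1 of 6 with DMSO and 0 of 6 untreated at an unadjusted p under 0.05). With DMSO the largest falls were those of Col14a1 (−3.26 ± 0.55, adjusted p = 0.00142), Col11a1 (−2.41 ± 0.27, adjusted p = 5.37e-05) and Col1a1 (−1.78 ± 0.28, adjusted p = 0.000752), and the 2 rises were those of Col28a1 (1.50 ± 0.39) and Col8a1 (1.35 ± 0.31). Untreated, Col14a1 fell by 2.55, Col24a1 by 1.69 and Col11a1 by 1.61, and the rises were those of Col28a1 (3.26 ± 0.39), Col8a1 (1.73 ± 0.31) and Col23a1 (1.05 ± 0.31). Col14a1, for example, had 5.75, 5.62 and 10.25 TPM at day 21 and 29.8, 74.9 and 186.5 TPM at day 2 with DMSO. The rise of Col28a1 with DMSO was lost without any 1 of 3 libraries (DMSO replicate 1 of day 2, DMSO replicates 2 and 3 of day 21), with adjusted p up to 0.0704. The rise of Col23a1 was lost without any 1 of 5 libraries (each of day 2, replicates 1 and 2 of day 21), and without the library that stood apart it was 0.73 with an adjusted p of 0.145.

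In GHMT cells the largest rises with DMSO were those of Col4a3 (4.01 ± 0.39, adjusted p = 7.7e-06), Col4a4 (3.28 ± 0.42, adjusted p = 7.56e-05) and Col22a1 (2.65 ± 0.22, adjusted p = 2.74e-06). Col4a3 had 33.2, 42.1 and 41.3 TPM at day 21 and 0.594, 1.49 and 2.73 TPM at day 2. With DMSO all 6 type IV chains rose, Col4a1 by 1.50, Col4a2 by 2.22, Col4a5 by 1.46 and Col4a6 by 1.16. Untreated, 4 of the 6 rose, Col4a1 by 0.90, Col4a2 by 1.69, Col4a3 by 3.19 and Col4a4 by 2.69. The largest untreated rises were those of Col15a1 (3.49 ± 1.02), Col28a1 (3.30 ± 0.53) and Col4a3. In both, Col24a1, a fibrillar chain of developing bone and cornea, was the member that fell (−1.12 ± 0.34 with DMSO, −1.20 ± 0.34 untreated).

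Some of these time calls depend on single libraries or scaling. In untreated uninfected cells, without replicate 3 of day 2 the falls of Col1a1 (adjusted p = 0.0575), Col1a2 (adjusted p = 0.0503) and Col5a2 were lost, which leaves 3 of 10 fibrillar members that fell, and the call total was 6 in place of 12. Untreated Col15a1 was lost without any 1 of 3 libraries (untreated replicate 1 of day 2, untreated replicates 1 and 2 of day 21), and Col4a1 untreated without replicate 1 or 3 of day 2 or replicate 1 of day 21 (adjusted p up to 0.122). With DMSO the rise of Col4a6 was lost without any 1 of its 6 libraries (adjusted p up to 0.129). The fall of Col24a1 was lost with DMSO without replicate 2 or 3 of day 2 or replicate 3 of day 21 (adjusted p up to 0.0866), and untreated without replicate 2 of day 2 or replicate 2 or 3 of day 21 (adjusted p up to 0.0694). Without the libraries that stood apart neither Col24a1 (−1.02, adjusted p = 0.0651) nor Col4a6 (1.01, adjusted p = 0.0731) was called in GHMT cells with DMSO. Also lost without those libraries were the rises of Col20a1 (adjusted p = 0.0898), Col27a1 (adjusted p = 0.0861), Col6a2 (adjusted p = 0.0948) and Col8a2 (adjusted p = 0.054) there, and the fall of Col17a1 in untreated uninfected cells (adjusted p = 0.053). Median ratio scaling shifted the median of all genes by −0.16 between days in untreated GHMT cells and by 0.11 in DMSO uninfected cells, and the calls then number 9 in place of 14 and 12 in place of 14.

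Col28a1 had 55.6 ± 17.3 TPM at day 21 and 5.53 ± 4.14 TPM at day 2 in untreated uninfected cells (SD, n = 3 each), while in uninfected cells with DMSO it had 5.405 ± 1.50 TPM at day 21 and 1.27 ± 0.581 TPM at day 2. In GHMT cells it had 6.89 ± 3.22 TPM at day 21 and 4.15 ± 1.80 TPM at day 2 with DMSO, where the change did not pass the test (0.59 ± 0.53, adjusted p = 0.41), and untreated it had 83.2 ± 36.2 TPM at day 21 and 7.42 ± 3.09 TPM at day 2. The difference made by DMSO at day 21 minus that at day 2 was not called in either arm, at −2.71 ± 0.76 in GHMT cells (adjusted p = 0.448) and −1.75 ± 0.55 in uninfected cells (adjusted p = 0.909).

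Ratios of chains that share a trimer compare levels within a library, so the scaling of a library has no bearing on them, and they were not tested. The log2 ratio of Col1a1 to Col1a2, whose products form type I collagen together, was lower with DMSO in uninfected cells at each day. It was −0.58 ± 0.10 with DMSO and −0.30 ± 0.12 untreated at day 2, −0.63 ± 0.11 with DMSO and −0.21 ± 0.02 untreated at day 7, and −1.08 ± 0.27 with DMSO and −0.63 ± 0.14 untreated at day 21 (SD, n = 3 each). The libraries did not overlap at any of the 3 days. In GHMT cells the ratio overlapped at each day, and it was −0.82 ± 0.26 with DMSO and −0.76 ± 0.50 untreated at day 2 and 0.27 ± 0.15 with DMSO and 0.18 ± 0.29 untreated at day 21.

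The ratio of Col4a1 to Col4a2 overlapped between DMSO and untreated GHMT cells at days 2 and 21. It was 1.40 ± 0.23 with DMSO and 1.37 ± 0.51 untreated at day 2 and 0.68 ± 0.05 with DMSO and 0.57 ± 0.09 untreated at day 21. The ratio of Col6a3 to Col6a1 in those cells was −1.44 ± 0.43 with DMSO and −1.16 ± 0.57 untreated at day 2 and −0.32 ± 0.75 with DMSO and 0.25 ± 0.45 untreated at day 21. The ratio of Col8a1 to Col8a2, chains of type VIII, was 2.32 ± 0.17 with DMSO and 3.03 ± 0.05 untreated in uninfected cells at day 7, without overlap.

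**Figure D5:**
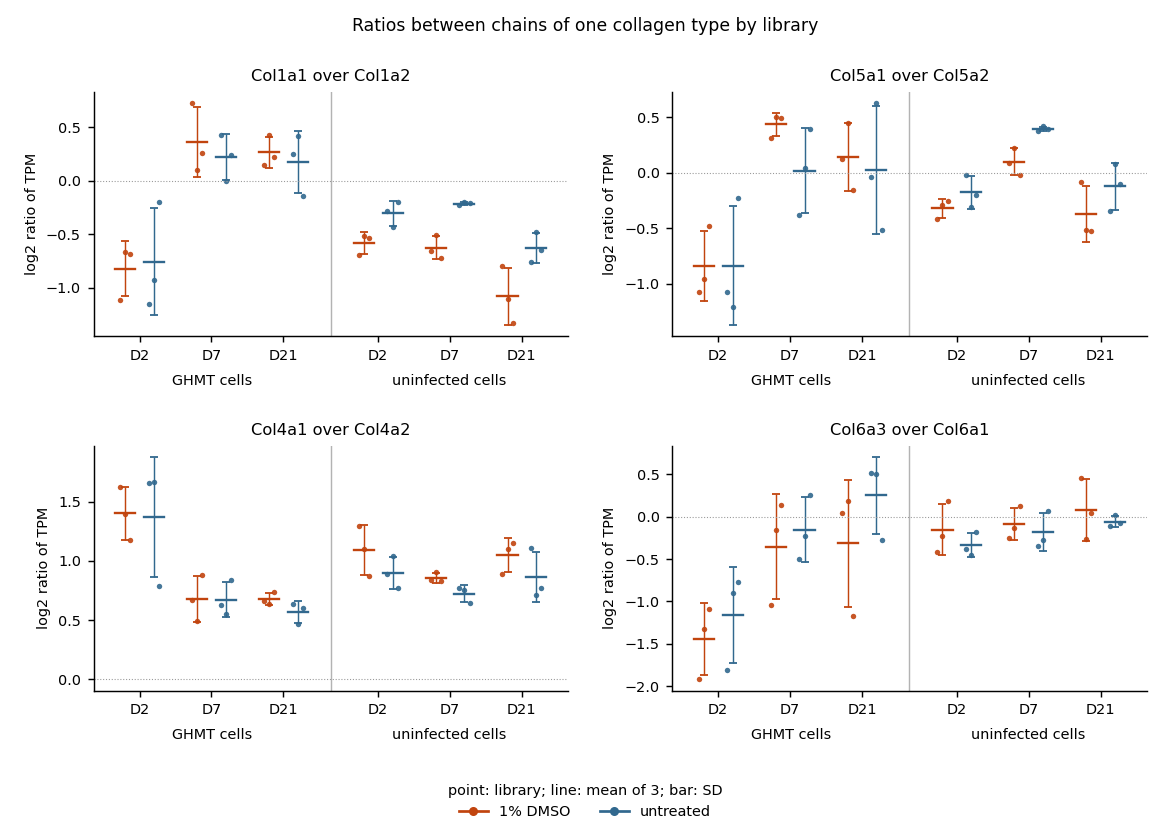
Log2 ratio of TPM between paired chains by day, GHMT cells left of uninfected cells and DMSO (orange) left of untreated (blue). Points are libraries, lines means of 3 and bars SD. Col1a1 over Col1a2 lies lower with DMSO in uninfected cells at each day, at −1.08 with DMSO and −0.63 untreated at day 21.

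Genes that modify, secrete, cleave, crosslink or bind collagen were also counted, from lists of 53 genes. Of 49 tested in uninfected cells 1 fell with DMSO at each day and none rose, while 0.285, 1.69 and 2.36% of all genes were called at days 2, 7 and 21. Of 48 tested in GHMT cells none was called by limma or had an unadjusted p under 0.05 at day 2, 1 fell at day 7, and 2 fell and 1 rose at day 21, while 0.00485, 0.708 and 4.59% of all genes were called. Loxl4, of the lysyl oxidase family that crosslinks collagen chains, was the gene that fell in each of these 5 comparisons. Loxl4 in uninfected cells at day 21 had 2.48, 2.57 and 2.41 TPM with DMSO and 9.39, 8.35 and 9.29 TPM untreated (−1.52 ± 0.15, adjusted p = 6.67e-05). Loxl4 in GHMT cells at day 21 had 5.92, 7.06 and 5.26 TPM with DMSO and 15.4, 11.96 and 13.1 TPM untreated (−1.03 ± 0.18, adjusted p = 0.00576).

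The other genes of these lists called for DMSO bind collagen. Itga2, a subunit of a collagen receptor, fell in GHMT cells at day 21 to 0.447, 0.454 and 0.509 TPM with DMSO, against 2.36, 2.05 and 1.03 TPM untreated (−0.90 ± 0.17, adjusted p = 0.00978). Itga2 reached 1 TPM only in these untreated libraries, so it passed the filter only through the group where it was high. No conclusion is drawn from its call, which is among the falls counted above. Itga2 was at 0.175 to 0.395 TPM in the uninfected libraries. Its difference in GHMT cells minus that in uninfected cells was −0.97 ± 0.18 (adjusted p = 0.00731), which only restates the GHMT difference. Mrc2, an endocytic receptor that takes up collagen, rose in GHMT cells at day 21. It had 157, 253 and 258 TPM with DMSO and 104, 94.95 and 88.0 TPM untreated (1.18 ± 0.23, adjusted p = 0.0132). Over time 15 of 48 rose and 3 fell in GHMT cells with DMSO, while 21.4% of all genes rose and 16.2% fell. Untreated, 18 rose and 1 fell, while 17.9% of all genes rose and 6.7% fell. The lead in both was Adamts2, the protease that removes the amino-terminal propeptide of types I to III (2.85 ± 0.27 with DMSO, 2.70 ± 0.27 untreated). In uninfected cells 5 of 49 rose and 10 fell with DMSO, while 4.86% of all genes rose and 10.2% fell. Untreated, 2 rose and 3 fell, while 5.16% of all genes rose and 5.84% fell. Adamts14, a relative of Adamts2, fell in both (−1.59 ± 0.21 with DMSO, −1.26 ± 0.21 untreated).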

How the data were processed

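Gene expression was measured by RNA sequencing of 36 libraries (TRIzol and Direct-zol extraction, TruSeq preparation, per the labels' protocols). The deposited values are TPM for each gene entry, which the authors made with kallisto after FastQC and Trimmomatic, per the submitters' processing notes. The sources used here give no genome build, annotation, strand setting or read depth. TPM keeps no depth, so no counting interval can be given. GHMT and uninfected libraries lie in separate tables of 50698 entries, of which 97 name no gene and hold 0.248 to 4.81% of a library's TPM; they stayed out of the tests, and entries with the same symbol were summed. The members, gene lists and alternatives were chosen with earlier results of these data known.

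Values were tested as log2(TPM + 1) for genes with at least 1 TPM in 3 or more libraries, with limma 3.58.1 in R 4.3.3 (trended variance, 1 mean per group, 12 residual degrees of freedom per table and 24 in the fit of both). Adjusted p-values are Benjamini-Hochberg over all genes tested, in each of 15 comparisons. Tables and figures were made with Python 3.11.15, pandas 2.3.3 and matplotlib 3.10.9, and the fit was tested on simulated data. Values per library are given for members called for DMSO, called for a difference between arms or days, or among the 3 with the highest mean TPM of their type; over time the 3 largest called rises and falls are named, and other members are named for comparison.

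Alternatives were pseudocounts of 0.1 and 5, a filter at 5 TPM and none, no variance trend, median ratio scaling, scaling to the protein-coding total, a fit of the compared groups only, a replicate block, each library left out and, added after seeing the data, the libraries that stood apart left out. Labels give replicate numbers in every group. Deviations of same-numbered libraries correlated at 0.194 to 0.345 in GHMT cells at day 2 and 0.183 to 0.25 at day 7, all above 0.1, and were taken to pair there; in every other pair of groups at least 1 number was under 0.1.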

Additional observations from a re-analysis of the deposited data

Results flagged for a closer look

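Both results that stood out concern Col22a1, and both are tests of whether the difference made by DMSO is itself different. In GHMT cells the DMSO minus untreated difference at day 21 exceeded that at day 2 by 1.99 ± 0.31 (SE, log2(TPM + 1), limma adjusted p = 0.0399), and without the libraries that stood apart this was 1.80 with an adjusted p of 0.0891. At day 21 the difference in GHMT cells exceeded that in uninfected cells by 1.89 ± 0.25 (adjusted p = 0.000179). Col22a1 lay between 0.113 and 0.542 TPM in all 18 uninfected libraries and under 1 TPM in every GHMT library of day 2. Both contrasts thus mostly restate its GHMT difference at day 21. The causes were not tested.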

How the results depend on the processing

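Of 156 alternatives to the 15 counts of called members, apart from leaving out single libraries, 140 stayed within 1.5 times the count reported and 16 did not. A count has no sign to reverse. The difference of a called member did not change sign in any alternative that kept it. With only the compared groups fitted, the counts were 8 in place of 14 for DMSO uninfected cells over time, 6 in place of 12 for untreated uninfected cells over time, 1 in place of 3 for DMSO in GHMT cells at day 21, 6 in place of 3 for DMSO in uninfected cells at day 7, and 0 in place of 1 for both contrasts of the DMSO difference that called Col22a1. With replicate number as a block in that fit, the counts were 1 for GHMT cells at day 21 and 10 for uninfected cells at day 7. The count was 1 in place of 0 for GHMT cells at day 7, where the numbers pair the libraries. Of the 10, Col1a1, Col1a2, Col3a1, Col8a1, Col11a1, Col12a1, Col14a1, Col15a1 and Col28a1 were lower with DMSO and Col27a1 was higher. With the block in the fit of 18 libraries GHMT cells at day 21 gave 5, as did scaling to the protein-coding total. Outside GHMT cells at days 2 and 7, at least 1 number correlated under 0.1 in each DMSO comparison. Same-numbered libraries there still correlated more than others did, at 0.0248 to 0.249, so pairing there is unsettled. Median ratio scaling gave 9 in place of 14 for untreated GHMT cells over time. The day contrast of the DMSO difference in GHMT cells gave 0 in place of 1 with a filter at 5 TPM, median ratio scaling, a pseudocount of 0.1 or without the libraries that stood apart. Leaving out 1 library gave 10 to 18 calls for DMSO GHMT cells over time, 9 to 19 for DMSO uninfected cells, 8 to 14 for untreated GHMT cells and 6 to 11 for untreated uninfected cells. For DMSO it gave 2 to 5 in GHMT cells at day 21, 1 to 6 in uninfected cells at day 21 and 1 to 2 at day 7. For the contrasts of the DMSO difference it gave 0 to 1 between days in GHMT cells and 1 to 2 between arms at day 21. The filter at 5 TPM gives no value for members it removes, and the cause of these shifts was not tested.

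The main limits are 3 libraries a group of unstated origin, no read depth, and 2 separately made tables. Members near 1 TPM, Col22a1, Col20a1 and Col11a2 among them, rest on few reads of unknown number, and their fold changes are understated on the log2(TPM + 1) scale.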
